A study of Homo sapiens with 14 samples.

Results

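The 47 genes described here encode the enzymes that build the N-glycan precursor, transfer it to protein, trim it and branch it. They were chosen by name, with no measured value in the rule, and all 47 were found among the 27819 genes that the 4 deposited count tables share. They fall into 4 groups by their step in the pathway, with 19 genes of the lipid-linked precursor, 11 subunits of the oligosaccharyltransferase, 11 trimming genes and 6 branching genes. Expression was measured by RNA-seq in CWR22Rv1, an established human prostate cancer cell line. Cells were treated for 72 h. The vehicle DMSO gave 3 libraries, Fucotrim I at 30 μM gave 3 and Fucotrim II at 60 μM gave 2. There were 3 with SGN-2FF, given at 100 μM, and 3 with P-SiaFNEtoc, given at 2 μM. DMSO was the vehicle control of every inhibitor, and the same 3 DMSO libraries served in all 4 comparisons with DMSO. Every group is the same cell line, so the libraries of a group are repeats of 1 line and not of different donors or tumours. Fucotrim I and Fucotrim II are rhamnose-1-phosphate derivatives made to enter the route by which cells convert GDP-mannose into GDP-fucose. SGN-2FF is 2-fluorofucose, which acts on fucosylation through the salvage route, and P-SiaFNEtoc is a fluorinated sialic acid that inhibits sialyltransferases. The luminal prostate markers KLK3, HOXB13, FOLH1, KRT8, KRT18 and EPCAM were present in all 14 libraries, at 27.5 CPM or more. The defining markers PTPRC, PECAM1, CHGA, TP63 and COL1A2 had at most 3 counts in any library. COL1A1 was the exception among the markers of other cell types, at 15.9 to 29.2 CPM. These markers moved with the treatments. KLK3, HOXB13, KRT8 and KRT18 rose with all 4 inhibitors. KLK3 rose by 1.15 on the log2 scale with Fucotrim I, 0.59 with Fucotrim II, 1.32 with SGN-2FF and 0.59 with P-SiaFNEtoc. COL1A1 rose with Fucotrim II by 0.59. After the correction for GC content described below, KRT18 was no longer called with SGN-2FF, at 0.025, or with P-SiaFNEtoc, at 0.067. The part of these markers in the results below was not tested.

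An N-glycan is first built on the lipid dolichol phosphate in the membrane of the endoplasmic reticulum, from GlcNAc, mannose and glucose. DPAGT1 adds the first sugar, the ALG enzymes add the others, and the DPM complex loads mannose from GDP-mannose onto dolichol for the steps on the luminal side. The oligosaccharyltransferase then moves the whole oligosaccharide to asparagine residues of new proteins, with STT3A or STT3B as its catalytic subunit. Glucosidases and mannosidases trim it during folding and passage to the Golgi, and MGAT enzymes start the branches on which fucose and sialic acid are later placed. GDP-mannose is thus the source of the mannose in this pathway and also the starting material of GDP-fucose.

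The libraries held 12553094 to 19981453 counts on genes. The 47 genes together took 0.509% to 0.515% of the counts in DMSO and 0.434% to 0.466% with Fucotrim I. Mitochondrially encoded genes took 5.98% to 7.03% of the counts in DMSO, 8.67% to 14.2% with Fucotrim I, 12.2% and 17.0% with Fucotrim II, 8.27% to 8.69% with SGN-2FF and 6.11% to 6.83% with P-SiaFNEtoc, and leaving these genes out gave 27 calls in place of 26 with Fucotrim I and 27 in place of 28 with Fucotrim II among the 47. Values per library are CPM, a gene's counts relative to the library total after TMM scaling over all 14 libraries, in the order of the replicate numbers. A CPM is a share of the RNA in a bulk sample, so less RNA per cell and fewer cells that express a gene cannot be told apart. Fold changes are log2 differences from edgeR's quasi-likelihood test, each comparison fitted alone, and a gene is said to have risen or fallen where the Benjamini-Hochberg adjusted p over all genes tested was under 0.05. All 47 genes passed the filter on low counts in every comparison.

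Levels between genes were compared per exon length (RPKM) in the DMSO libraries. The oligosaccharyltransferase was the group with the highest median level, 59.1 RPKM, with its 11 subunits between 23.5 and 115 RPKM. The medians were 7.38 RPKM for the precursor genes, 5.89 for trimming and 6.09 for branching. Per length of all exons, the highest single level was that of GANAB, the catalytic subunit of glucosidase II, at 125 ± 1.61 RPKM (SD, n = 3), and its partner PRKCSH stood at 67.8 ± 1.69. RPN2, DAD1, RPN1 and DDOST followed GANAB, and the ranges of DAD1 and RPN1 overlapped. Within the precursor group DPM3, which anchors the dolichol phosphate mannose synthase in the membrane, was highest at 46.8 ± 5.22 RPKM. DPAGT1 was at 9.93 ± 0.534 RPKM. The lowest 3 genes on this scale were MAN1C1, a Golgi mannosidase, at 0.635 ± 0.0891 RPKM, ALG11, a mannosyltransferase of the cytosolic side, at 0.503 ± 0.0536, and MGAT3, which adds the bisecting GlcNAc, at 0.379 ± 0.0538. The order depends on the length used. Per longest transcript, RPN1 came first at 186 RPKM, GANAB stood at 161 and PRKCSH at 160.2, and the lowest 3 were ALG14 at 1.01, ALG11 at 0.735 and MGAT3 at 0.407, with MAN1C1 at 1.33. In the order of 47 levels over all exons, 21 of the 46 neighbouring pairs overlapped in their ranges over the DMSO libraries.

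**Figure D1:**
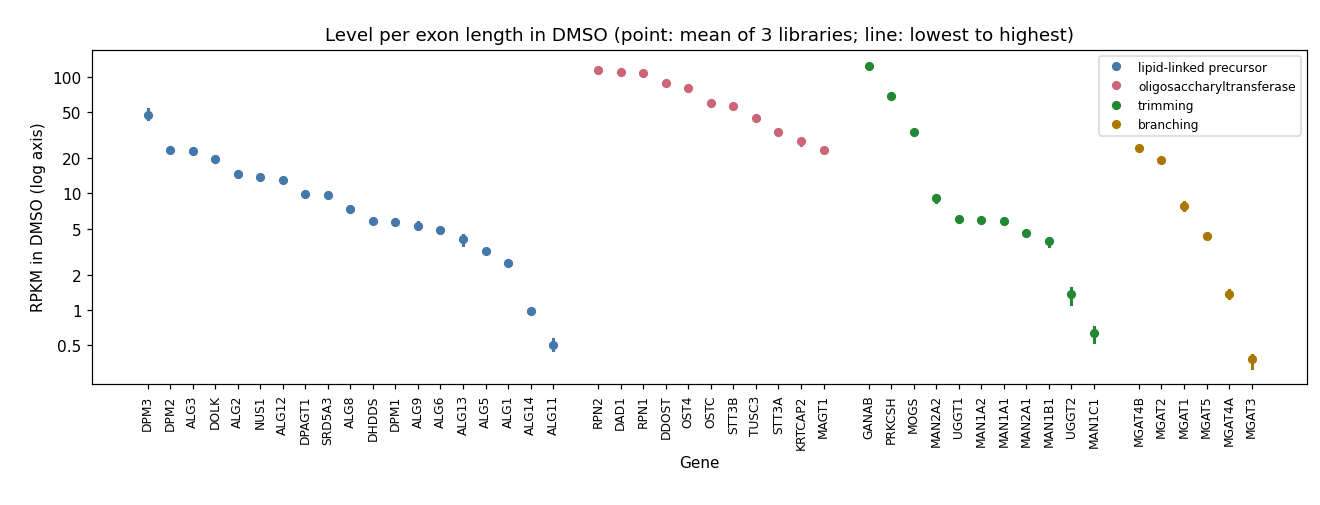
Level of each of the 47 genes in DMSO as RPKM on a log axis, grouped by pathway step, with the mean as a point and the range of 3 libraries as a line. The oligosaccharyltransferase subunits sit between 23.5 and 115 RPKM, while precursor, trimming and branching genes spread from 0.379 to 125 RPKM.

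Compared with DMSO, 9 of the 47 genes rose and 17 fell with Fucotrim I. Of all 14188 genes tested in that comparison, 21.6% rose and 22.1% fell, so the falls among the 47 genes, 36.2%, stood above the background and the rises, 19.1%, near it. With Fucotrim II, 18 genes rose and 10 fell, which is 38.3% and 21.3% of the 47, beside 25.6% and 25.7% of all genes. With SGN-2FF, 5 rose and 8 fell, beside 11.5% and 9.08% of all genes. With P-SiaFNEtoc, 6 rose and 2 fell, beside 9.02% and 7.33% of all genes. The 47 genes had a median log2 fold change of -0.082 for Fucotrim I, 0.083 for Fucotrim II, -0.040 with SGN-2FF and 0.0046 with P-SiaFNEtoc, where the median over all genes tested was within 0.01 of 0 each time. The 4 comparisons share their DMSO libraries. DPM3 and MAN1C1 rose with all 4 inhibitors. ALG5 and RPN1 fell with Fucotrim I and rose with Fucotrim II. Without a correction for GC content, described next, the genes called with no inhibitor were ALG13, ALG14, ALG2, ALG11, ALG9, ALG8, DOLK, DHDDS, SRD5A3, OST4 and UGGT2. Without SGN-2FF replicate 1 or 2, 7 or 6 genes were called with SGN-2FF in place of 13, and without DMSO replicate 2 or P-SiaFNEtoc replicate 2 or 3, 4 genes were called with P-SiaFNEtoc in place of 8.

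**Figure D2:**
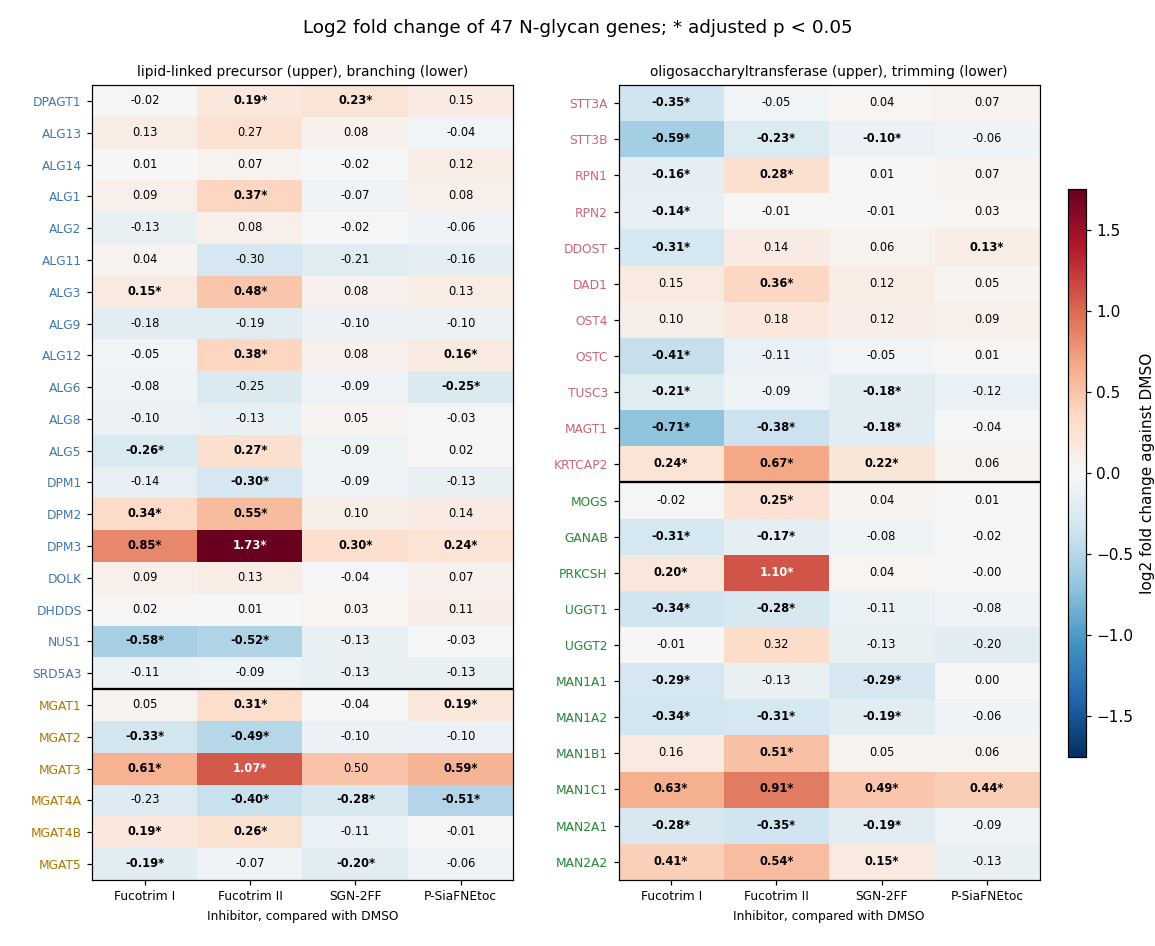
Log2 fold change of all 47 genes against DMSO (rows) for 4 inhibitors (columns), with red for higher, blue for lower and an asterisk where the adjusted p was under 0.05. The Fucotrim I column of the oligosaccharyltransferase block is blue for STT3A, STT3B, RPN1, RPN2, DDOST, OSTC, TUSC3 and MAGT1, and DPM3 with Fucotrim II is the deepest red at 1.73.

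The changes followed the base composition of the transcripts in every comparison. Over the 47 genes, Pearson's r between the GC content of the main annotated transcript and the log2 fold change was 0.71 with Fucotrim I, 0.76 with Fucotrim II, 0.67 with SGN-2FF and 0.66 with P-SiaFNEtoc. Over all genes tested with a known GC content it was 0.41, 0.46, 0.21 and 0.30. These are descriptions across genes, which share their libraries and the DMSO controls and are not independent. With Fucotrim II the 12 genes with 55% GC or more had a median log2 fold change of 0.53, and the 22 genes under 45% had -0.16. With Fucotrim I these medians were 0.19 and -0.22. A trend on GC content and length was therefore removed from each library, as an alternative added after the data were seen, and the values under it are given beside the results. With it, 4 genes rose and 14 fell with Fucotrim I, 17 rose and 4 fell with Fucotrim II, 3 rose and 5 fell with SGN-2FF, and 2 rose and 4 fell with P-SiaFNEtoc. Under the same correction 39.2%, 46.9%, 23.6% and 13.9% of all genes were called in either direction, in this order. With rises and falls pooled, the 18, 21, 8 and 6 of the 47 genes called were no larger a share than that background. Shares of all genes by direction were not taken under the correction, so the splits into rises and falls have no background of their own. The calls gained were those of ALG13, ALG12 and MOGS with Fucotrim I, ALG13, ALG14, ALG2, TUSC3 and UGGT2 with Fucotrim II, GANAB and MGAT4B with SGN-2FF, and STT3A, PRKCSH, MAN2A2 and MGAT4B with P-SiaFNEtoc. The correction removes any change that follows GC content, whatever its source, and what made the libraries differ in this way was not tested.

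**Figure D3:**
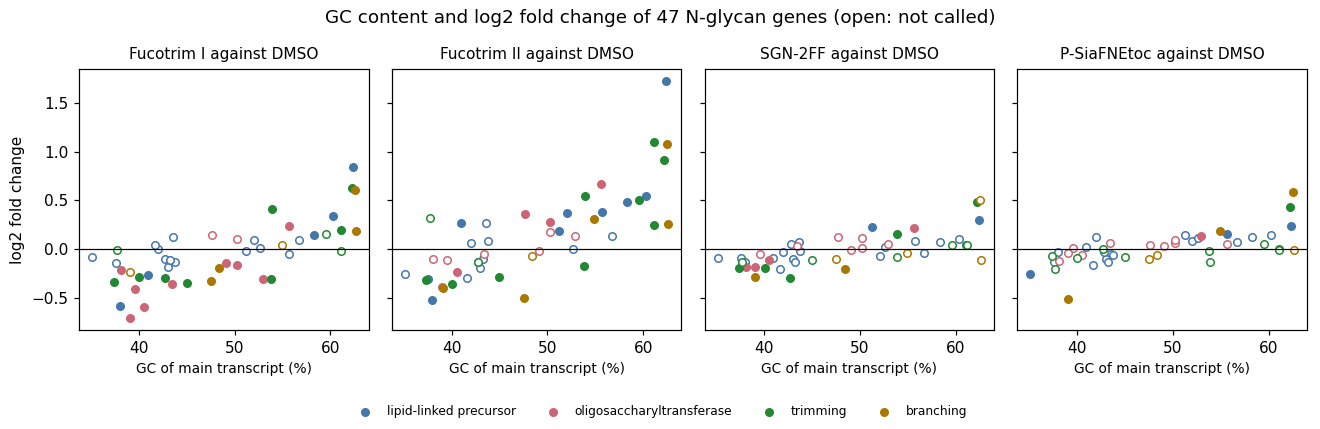
GC content of the main transcript in percent (x axis) and log2 fold change against DMSO (y axis) for the 47 genes, 1 panel per inhibitor, with filled points for genes past the threshold and colours for the pathway step. In every panel the points climb from left to right. With Fucotrim II the 22 genes under 45% GC have a median of -0.16 and the 12 genes at 55% or more have 0.53.

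Among the 19 genes of the lipid-linked precursor, 3 rose and 2 fell with Fucotrim I, 7 rose and 2 fell with Fucotrim II, 2 rose and none fell with SGN-2FF, and 2 rose and 1 fell with P-SiaFNEtoc. The group's median log2 fold change was -0.021, 0.083, -0.022 and 0.020 in that order. For Fucotrim I, Fucotrim II and P-SiaFNEtoc, 26.3%, 47.4% and 15.8% of the group were called, beside 43.8%, 51.4% and 16.3% of all genes. SGN-2FF had 2 of the 19 called, beside 20.6% of all genes. No share stood above that of all genes. Calls after the GC correction numbered 5, 8, 1 and 0 of the 19 in the first order, beside 39.2%, 46.9%, 23.6% and 13.9% of all genes.  DPM3 rose most, and it did so with every inhibitor. Its promoter and that of ALG12 are shown because DPM3 had the largest change and because ALG12 alone among the genes here carried a complete ER stress response element. They are the 250 bases before the annotated start from RefSeq (GRCh38.p14), 5′ to 3′, with the letters of matched motifs in capitals.
DPM3 (chr1:155140532-155140781, minus strand): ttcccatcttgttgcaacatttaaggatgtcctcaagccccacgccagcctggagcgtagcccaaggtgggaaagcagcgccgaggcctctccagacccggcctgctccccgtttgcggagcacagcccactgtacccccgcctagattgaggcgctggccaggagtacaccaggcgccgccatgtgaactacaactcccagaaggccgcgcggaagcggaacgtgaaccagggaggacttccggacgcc
ALG12 (chr22:49918439-49918688, minus strand): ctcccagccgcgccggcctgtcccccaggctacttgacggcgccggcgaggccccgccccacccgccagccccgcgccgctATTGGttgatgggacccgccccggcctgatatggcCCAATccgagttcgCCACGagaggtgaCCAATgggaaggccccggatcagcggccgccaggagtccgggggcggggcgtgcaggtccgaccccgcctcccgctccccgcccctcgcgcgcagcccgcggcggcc
A window of 300 bases, the 250 above and the 50 that follow, was searched on both strands in 40 of the 47 genes that have an entry and in 27305 genes in all, over all entries of a gene. The motifs were the ER stress response element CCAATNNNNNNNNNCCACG, its second form ATTGGNCCACG, the UPR element core TGACGTGG, the cyclic AMP response element TGACGTCA and the CCAAT box, which also lies inside the first element and, read on the other strand, inside its second form. The first element was found in ALG12 of the 40 genes (2.5%) and in 0.0916% of all genes. The UPR element core was found in DHDDS (2.5%) and in 0.927% of all genes, and the second form and TGACGTCA were found in none of the 40, beside 0.0696% and 2.25% of all genes. A match describes these letters and is not evidence of binding, and the DPM3 window held none of the 5 motifs.

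DPM3 (hg38, chromosome 1, 155139891 to 155140595, NCBI gene ID 54344) was at 26.8, 27.7 and 32.8 CPM in DMSO, 56.0, 44.6 and 56.2 with Fucotrim I, 88.3 and 105 with Fucotrim II, 33.9, 37.0 and 35.0 with SGN-2FF and 32.5, 34.4 and 36.0 with P-SiaFNEtoc. Every Fucotrim II library lay above every Fucotrim I library, and both Fucotrim groups lay wholly above DMSO, while the lowest P-SiaFNEtoc library was just below the highest DMSO one. The log2 fold change was 0.85 (SE 0.092, adjusted p = 1.12e-06) with Fucotrim I, 1.73 (SE 0.10, adjusted p = 6.02e-06) with Fucotrim II, 0.30 (SE 0.073, adjusted p = 0.00421) with SGN-2FF and 0.24 (SE 0.070, adjusted p = 0.0174) with P-SiaFNEtoc. The main transcript of DPM3 has 62.4% GC. After the GC correction the log2 fold change was 0.42 (adjusted p = 5.75e-05) with Fucotrim I and 1.12 (adjusted p = 1.16e-07) with Fucotrim II, and the calls with SGN-2FF and P-SiaFNEtoc were lost at 0.077 and 0.11. The SGN-2FF call was also lost without SGN-2FF replicate 2 (adjusted p = 0.0560). The P-SiaFNEtoc call was lost without DMSO replicate 1 or 2 or P-SiaFNEtoc replicate 2 or 3, with an adjusted p of up to 0.101. Its partners in the synthase differed from it. DPM2, the regulatory subunit, rose by 0.34 ± 0.067 (SE) on the log2 scale with Fucotrim I and 0.55 ± 0.10 with Fucotrim II, and both calls were lost after the GC correction. DPM1, the catalytic subunit, fell with Fucotrim II at -0.30 (SE 0.085, adjusted p = 0.0155) and was at -0.14 ± 0.072 with Fucotrim I, which did not pass the threshold, and the Fucotrim II call was lost after the GC correction and without DMSO replicate 1 or 2.

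NUS1, the accessory subunit of the cis-prenyltransferase that makes the dolichol chain, was the precursor gene with the largest fall. It was at 65.7, 68.0 and 64.9 CPM in DMSO, 42.3, 47.4 and 42.7 with Fucotrim I and 49.3 and 43.4 with Fucotrim II, so that all 5 Fucotrim libraries lay below all DMSO libraries. The log2 fold change was -0.58 (SE 0.063, adjusted p = 4.80e-07) with Fucotrim I and -0.52 (SE 0.078, adjusted p = 5.08e-04) with Fucotrim II, and it kept its call after the GC correction at -0.39 and -0.19. With SGN-2FF it was at 59.5, 61.1 and 59.6 CPM and -0.13 ± 0.050 on the log2 scale, which missed the threshold (adjusted p = 0.0678). Of the 100-base windows of its exons, 9.30% are shared with the pseudogene NUS1P1. DHDDS, the catalytic partner of NUS1, was at most 0.11 from DMSO on the log2 scale, with P-SiaFNEtoc, and was called with no inhibitor.

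DPAGT1, the target of tunicamycin and the enzyme of the first step, was at 60.2, 67.0 and 64.7 CPM in DMSO, 61.6, 58.8 and 68.8 with Fucotrim I, 73.9 and 72.3 with Fucotrim II, 76.1, 78.0 and 68.3 with SGN-2FF and 65.7, 74.9 and 71.6 with P-SiaFNEtoc. The Fucotrim I libraries spanned the DMSO range, while the Fucotrim II and SGN-2FF libraries lay above it. It rose with SGN-2FF at 0.23 (SE 0.055, adjusted p = 0.00421), a call kept after the GC correction and lost without SGN-2FF replicate 2 (adjusted p = 0.0663). With Fucotrim II the call was marginal at 0.19 (SE 0.070, adjusted p = 0.0493) and was lost after the GC correction and without any 1 of the DMSO libraries, with an adjusted p of up to 0.218. On the opposite strand, C2CD2L and a gene that has no symbol together cover 26.4% of its exons, and C2CD2L was at 0.058 ± 0.047 with SGN-2FF. ALG5, which loads glucose onto dolichol, moved in opposite directions with the 2 Fucotrims, from 45.5, 43.6 and 44.6 CPM in DMSO to 35.6, 39.8 and 35.3 with Fucotrim I and 55.5 and 52.7 with Fucotrim II. Its log2 fold changes of -0.26 (SE 0.068, adjusted p = 0.00360) and 0.27 (SE 0.070, adjusted p = 0.00892) kept their calls after the GC correction.

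The mannosyltransferases did not move as a block. With Fucotrim II, ALG1, which adds the first mannose, rose by 0.37 ± 0.092 (SE) on the log2 scale, ALG3, the first enzyme of the luminal side, by 0.48 ± 0.083, and ALG12, a later luminal enzyme, by 0.38 ± 0.062, whereas ALG2, ALG11 and ALG9 were at 0.083 ± 0.076, -0.30 ± 0.17 and -0.19 ± 0.079 and did not pass the threshold. The rises of ALG1 and ALG12 were kept after the GC correction that of ALG3 was lost and ALG2 gained a call at 0.18 (adjusted p = 0.0346), and the ALG1 call was lost without DMSO replicate 3. With Fucotrim I, of these 6 enzymes ALG3 alone passed, at 0.15 (SE 0.060, adjusted p = 0.0480), and this turned to -0.067 after the GC correction and was also lost without any 1 of the DMSO libraries or Fucotrim I replicate 1 or 3. Under that correction ALG12 passed as lower with Fucotrim I, at -0.12 (adjusted p = 0.0463). ALG12 overlaps CRELD2, an ER stress gene on the opposite strand. That gene and 1 that has no symbol together cover 42.3% of the exons of ALG12. CRELD2 was at -0.67 with Fucotrim I and 0.57 with Fucotrim II, and ALG12 at -0.048 and 0.38. The strand setting of the counting was not given in the sources used here, so reads of the pair may not be fully separated. ALG11 shares 33.0% of its windows with UTP14C and UTP14A together, and ALG9 20.6% with an overlapping gene that has no symbol. ALG6, which adds the first glucose, was the precursor gene that fell with P-SiaFNEtoc, from 26.2, 27.7 and 26.1 to 22.4, 23.3 and 21.5 CPM, at -0.25 (SE 0.068, adjusted p = 0.0121), and this call was lost after the GC correction (adjusted p = 0.123) and without DMSO replicate 2. ALG12 rose with P-SiaFNEtoc at 0.16 (SE 0.051, adjusted p = 0.0330), a call lost after the GC correction and without DMSO replicate 1 or 3 or P-SiaFNEtoc replicate 1 or 3.

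Most subunits of the oligosaccharyltransferase changed with Fucotrim I. With this inhibitor, 8 of its 11 subunits fell and 1 rose, which is 72.7% and 9.09%, beside 22.1% and 21.6% of all genes. The group's median log2 fold change with it was -0.21. The summed CPM of the 11 genes was 2286 to 2325 in DMSO and 1902 to 1964 with Fucotrim I. With Fucotrim II, 3 rose and 2 fell around a median of -0.012, and the sum was 2354 and 2457 CPM. With SGN-2FF, 1 rose and 3 fell, and with P-SiaFNEtoc, 1 rose and none fell. For Fucotrim II, SGN-2FF and P-SiaFNEtoc, 45.5%, 36.4% and 9.09% of the subunits were called, beside 51.4%, 20.6% and 16.3% of all genes. With GC content corrected for, 7 subunits fell and none rose with Fucotrim I, the 7 being STT3A, STT3B, RPN1, RPN2, DDOST, OSTC and MAGT1. Under the same correction 4 rose and none fell with Fucotrim II. With SGN-2FF none rose and 1 fell, and with P-SiaFNEtoc 1 rose and none fell.

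The promoters of 4 subunits that fell with Fucotrim I are shown, since these genes moved together. They are again the 250 bases before the start (RefSeq, GRCh38.p14), with CCAAT, on either strand, in capitals.
STT3A (chr11:125592602-125592851, plus strand): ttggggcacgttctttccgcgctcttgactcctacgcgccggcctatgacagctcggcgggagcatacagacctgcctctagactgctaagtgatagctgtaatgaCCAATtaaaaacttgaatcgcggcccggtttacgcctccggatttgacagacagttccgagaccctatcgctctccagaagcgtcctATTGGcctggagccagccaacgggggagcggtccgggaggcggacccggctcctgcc
DDOST (chr1:20661370-20661619, minus strand): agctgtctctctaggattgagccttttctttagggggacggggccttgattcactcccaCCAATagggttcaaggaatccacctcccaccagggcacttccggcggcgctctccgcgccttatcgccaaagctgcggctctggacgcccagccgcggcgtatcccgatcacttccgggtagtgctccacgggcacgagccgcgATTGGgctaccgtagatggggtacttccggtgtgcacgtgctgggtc
MAGT1 (chrX:77895436-77895685, minus strand): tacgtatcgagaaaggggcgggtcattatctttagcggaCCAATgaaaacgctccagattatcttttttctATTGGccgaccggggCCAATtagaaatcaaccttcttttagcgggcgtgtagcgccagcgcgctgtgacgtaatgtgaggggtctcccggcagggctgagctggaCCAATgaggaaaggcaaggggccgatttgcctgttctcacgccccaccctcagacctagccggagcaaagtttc
OSTC (chr4:108650349-108650598, plus strand): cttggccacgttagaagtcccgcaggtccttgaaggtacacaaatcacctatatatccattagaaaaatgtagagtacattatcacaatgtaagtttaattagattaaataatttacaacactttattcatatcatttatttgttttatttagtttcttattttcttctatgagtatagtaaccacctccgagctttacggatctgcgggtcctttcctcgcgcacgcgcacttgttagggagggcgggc
STT3A, DDOST and MAGT1 carry the CCAAT box in these windows and OSTC, which fell as well, does not. RPN2, which fell too, and OST4, which was not called, also held none. Of the 40 genes with an entry, 24 (60%) held a CCAAT box in the 300-base window, beside 39.7% of all genes. KRTCAP2 and DAD1, which did not fall, also held one.

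STT3A (hg38, chromosome 11, 125591712 to 125625215, NCBI gene ID 3703), the catalytic subunit that works during translocation of the protein, was at 248, 261 and 240.4 CPM in DMSO and 196, 201 and 189 with Fucotrim I. With Fucotrim II it was at 241 and 245 CPM, with SGN-2FF at 251, 251 and 260.1 and with P-SiaFNEtoc at 257, 262 and 264. The Fucotrim I libraries alone stood apart from DMSO, all 3 of them below it. The log2 fold change was -0.35 (SE 0.050, adjusted p = 1.06e-05) with Fucotrim I and -0.046 ± 0.062 (SE) with Fucotrim II, the latter not past the threshold. STT3B (hg38, chromosome 3, 31532638 to 31637616, NCBI gene ID 201595), the catalytic subunit that acts on sites the first has skipped, was at 283, 275 and 278 CPM in DMSO, 185, 191 and 177 with Fucotrim I, 254 and 222 with Fucotrim II, 259.5, 249.6 and 263 with SGN-2FF and 269.5, 267 and 265 with P-SiaFNEtoc. Every treated library lay below the lowest DMSO library, by the widest margin with Fucotrim I. STT3B fell with Fucotrim I at -0.59 (SE 0.048, adjusted p = 7.69e-09), with Fucotrim II at -0.23 (SE 0.072, adjusted p = 0.0212) and with SGN-2FF at -0.10 (SE 0.037, adjusted p = 0.0456). The last 2 calls were lost after the GC correction. They were also lost without any 1 of the DMSO libraries for Fucotrim II (adjusted p up to 0.0801), and without DMSO replicate 1 or 3 or SGN-2FF replicate 1 or 2 for SGN-2FF (adjusted p up to 0.238).

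MAGT1 and TUSC3 are the alternative oxidoreductase subunits of the STT3B form of the complex. MAGT1 was at 159, 159 and 161 CPM in DMSO, 95.2, 101 and 96.6 with Fucotrim I, 125 and 121 with Fucotrim II, 136, 139.7 and 142 with SGN-2FF and 158, 149 and 158 with P-SiaFNEtoc. The libraries of both Fucotrims and of SGN-2FF overlapped neither with DMSO nor with each other, and the P-SiaFNEtoc libraries lay just below DMSO. MAGT1 fell with Fucotrim I at -0.71 (SE 0.051, adjusted p = 1.64e-09), the largest fall among the 47 genes, with Fucotrim II at -0.38 (SE 0.060, adjusted p = 6.94e-04) and with SGN-2FF at -0.18 (SE 0.041, adjusted p = 0.00195). After the GC correction these were -0.54, -0.083 and -0.13, and the Fucotrim II call was lost. TUSC3 was at 246, 218 and 231 CPM in DMSO, 196, 206 and 199 with Fucotrim I, 219 and 217 with Fucotrim II and 208, 197 and 205 with SGN-2FF. It fell with Fucotrim I at -0.21 (SE 0.052, adjusted p = 0.00271) and with SGN-2FF at -0.18 (SE 0.043, adjusted p = 0.00337), and both calls were lost after the GC correction. Under that correction TUSC3 gained a call as higher with Fucotrim II.

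Of the shared subunits, DDOST fell with Fucotrim I at -0.31 ± 0.053 (SE), RPN1 at -0.16 ± 0.045 and RPN2 at -0.14 ± 0.045, and the RPN2 call was lost without DMSO replicate 1 (adjusted p = 0.0732). OSTC, which ties the STT3A form to the translocation channel, fell with Fucotrim I at -0.41 (SE 0.056, adjusted p = 8.30e-06), from 95.6, 97.2 and 93.7 to 68.3, 74.0 and 73.4 CPM. RPN1 went the other way with Fucotrim II, from 428, 419 and 426 CPM in DMSO and 386, 369 and 381 with Fucotrim I to 498 and 534, a rise of 0.28 (SE 0.060, adjusted p = 0.00405) on the log2 scale that was kept after the GC correction. DDOST rose with P-SiaFNEtoc, from 245, 235 and 243 to 255, 259 and 278 CPM at 0.13 (SE 0.041, adjusted p = 0.0238), and this call was lost after the GC correction and without DMSO replicate 2 or 3 or P-SiaFNEtoc replicate 2 or 3. Exons of DDOST share 12.1% of their windows with PINK1-AS on the same strand. KRTCAP2, a small subunit of the STT3A form, moved against the group, and shares 14.1% of its windows with a gene that has no symbol. It was at 99.3, 110.5 and 109.5 CPM in DMSO, 128, 118 and 130.3 with Fucotrim I, 164 and 176 with Fucotrim II and 119, 127 and 122 with SGN-2FF. It rose with Fucotrim I at 0.24 ± 0.058 (SE), with Fucotrim II at 0.67 ± 0.070 and with SGN-2FF at 0.22 ± 0.048. With GC content corrected for, the value with Fucotrim I turned to -0.039, that with SGN-2FF lost its call and that with Fucotrim II kept it. DAD1 rose with Fucotrim II at 0.36 (SE 0.068, adjusted p = 0.00185), and OST4, the smallest subunit, was called with no inhibitor.

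**Figure D4:**
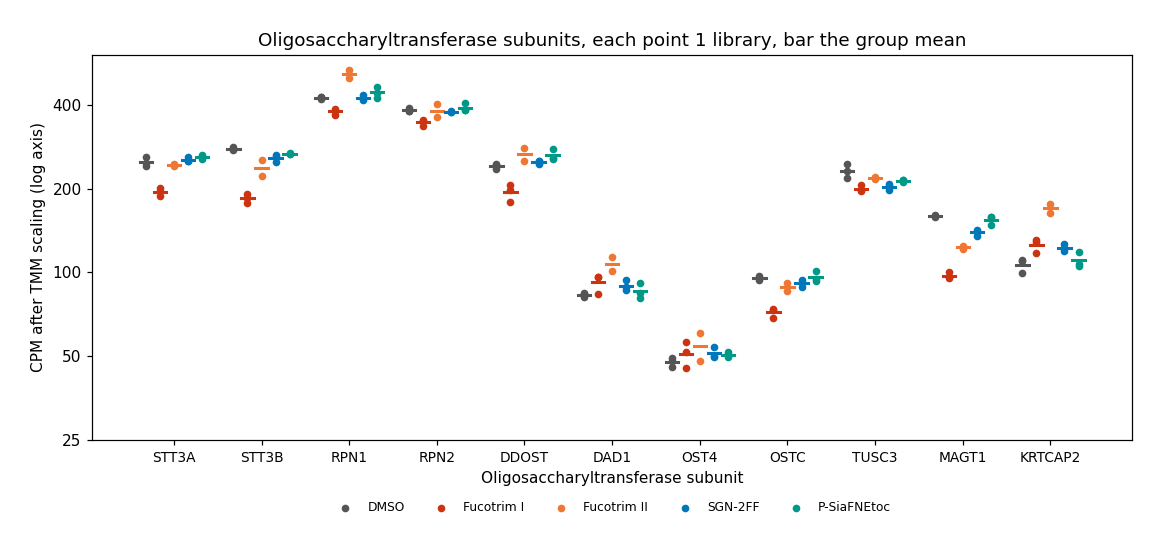
CPM on a log axis (y axis) of the 11 oligosaccharyltransferase subunits (x axis), with 1 point per library, a bar for the group mean and a colour for each of the 5 groups. The Fucotrim I points lie below all DMSO points for STT3A, STT3B, RPN1, RPN2, DDOST, OSTC, TUSC3 and MAGT1, and above them for KRTCAP2, while the Fucotrim II points for RPN1 (498 and 534 CPM) lie above DMSO.

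Among the 11 trimming genes, 3 rose and 5 fell with Fucotrim I, 5 rose and 4 fell with Fucotrim II, 2 rose and 3 fell with SGN-2FF, and 1 rose and none fell with P-SiaFNEtoc. In this order, 72.7%, 81.8%, 45.5% and 9.09% of the group were called, beside 43.8%, 51.4%, 20.6% and 16.3% of all genes. With GC content corrected for, 5, 5, 4 and 2 of the 11 were called, beside 39.2%, 46.9%, 23.6% and 13.9% of all genes. The glucosidases act first. MOGS, glucosidase I, was at 123, 117 and 125 CPM in DMSO, 122, 113 and 124 with Fucotrim I, 144 and 146 with Fucotrim II, 121, 130.4 and 121 with SGN-2FF and 121, 123 and 122 with P-SiaFNEtoc. It rose with Fucotrim II at 0.25 (SE 0.063, adjusted p = 0.00820), and this value turned to -0.097 after the GC correction and lost its call without DMSO replicate 2. The 2 subunits of glucosidase II moved apart. GANAB, the catalytic one, fell with Fucotrim I at -0.31 (SE 0.047, adjusted p = 2.83e-05) from 637, 626 and 622 to 530.1, 483 and 508 CPM. With Fucotrim II its fall of -0.17 (SE 0.064, adjusted p = 0.0497) was at the threshold, lost its call without any 1 of the DMSO libraries or Fucotrim II replicate 1, and was -0.28 (adjusted p = 0.00198) after the GC correction. PRKCSH, the regulatory subunit that holds the enzyme in the endoplasmic reticulum, was at 357, 341 and 355 CPM in DMSO, 445, 356 and 405 with Fucotrim I, 698 and 811 with Fucotrim II, 373, 364 and 336 with SGN-2FF and 345, 341 and 361 with P-SiaFNEtoc. The Fucotrim II libraries stood far above all others, and 1 Fucotrim I library lay within the DMSO range. PRKCSH rose with Fucotrim II at 1.10 (SE 0.072, adjusted p = 9.64e-06), which was 0.71 after the GC correction (adjusted p = 6.86e-07). Its rise with Fucotrim I at 0.20 (SE 0.062, adjusted p = 0.0145) turned to -0.042 under the correction and lost its call without Fucotrim I replicate 1 or 3.

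UGGT1, the folding sensor that adds glucose back to misfolded glycoproteins, fell with Fucotrim I at -0.34 (SE 0.060, adjusted p = 1.19e-04) and with Fucotrim II at -0.28 (SE 0.072, adjusted p = 0.00963). It was at 64.4, 69.8 and 71.3 CPM in DMSO, 53.0, 54.6 and 53.9 with Fucotrim I and 57.5 and 55.8 with Fucotrim II. The Fucotrim II call was lost after the GC correction. UGGT2, its paralog, had 9.07, 12.6 and 11.8 CPM in DMSO and was not called before the GC correction. After it UGGT2 gained a call as higher with Fucotrim II. The Golgi mannosidases of the first step differed among themselves. MAN1A2 fell with Fucotrim I at -0.34 (SE 0.067, adjusted p = 4.03e-04), MAN1A1 fell with Fucotrim I at -0.29 (SE 0.079, adjusted p = 0.00490) and with SGN-2FF at -0.29 (SE 0.068, adjusted p = 0.00325), and of these 3 calls the last alone was kept after the GC correction. MAN1A2 also fell with Fucotrim II at -0.31 (SE 0.098, adjusted p = 0.0248), which turned to 0.094 under the correction and lost its call without DMSO replicate 1 or 2 or Fucotrim II replicate 2, and with SGN-2FF at -0.19 (SE 0.063, adjusted p = 0.0322), lost after the correction and without DMSO replicate 1 or 2 or SGN-2FF replicate 1 or 2. MAN1A1 was at 28.8, 30.2 and 28.4 CPM in DMSO, 25.7, 22.2 and 23.4 with Fucotrim I and 24.1, 22.9 and 24.2 with SGN-2FF, with no overlap between either inhibitor and DMSO. MAN1A2 was at 57.5, 58.4 and 54.8 CPM in DMSO and 42.8, 49.1 and 42.8 with Fucotrim I, also without overlap. MAN1B1, a mannosidase linked to disposal of misfolded glycoproteins, rose with Fucotrim II at 0.51 (SE 0.086, adjusted p = 0.00106), a call lost after the GC correction.

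MAN1C1 (hg38, chromosome 1, 25616791 to 25786206, NCBI gene ID 57134), the third Golgi mannosidase of this kind, was at 6.93, 5.22 and 6.33 CPM in DMSO, 10.3, 8.11 and 10.2 with Fucotrim I, 12.3 and 11.0 with Fucotrim II, 9.47, 7.84 and 8.51 with SGN-2FF and 8.32, 8.77 and 7.88 with P-SiaFNEtoc. All 11 treated libraries lay above the highest DMSO library. These values rest on 94 to 204 counts per library. The log2 fold change was 0.63 (SE 0.14, adjusted p = 0.00106) with Fucotrim I, 0.91 (SE 0.14, adjusted p = 6.85e-04) with Fucotrim II, 0.49 (SE 0.13, adjusted p = 0.00762) with SGN-2FF and 0.44 (SE 0.12, adjusted p = 0.0137) with P-SiaFNEtoc. After the GC correction it was 0.41, 0.56, 0.41 and 0.33, and the call with P-SiaFNEtoc was lost. That call was also lost without DMSO replicate 2 or P-SiaFNEtoc replicate 2, and the call with SGN-2FF without SGN-2FF replicate 1.

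MAN2A1 and MAN2A2 encode the 2 forms of mannosidase II, which removes the last mannoses before the second branch. MAN2A1 was at 51.4, 49.4 and 53.3 CPM in DMSO, 41.6, 45.4 and 38.9 with Fucotrim I, 42.1 and 38.6 with Fucotrim II and 42.8, 43.0 and 48.0 with SGN-2FF, all of these below the DMSO range. MAN2A2 was at 82.9, 94.3 and 92.2 CPM in DMSO, 111, 121 and 125 with Fucotrim I, 151 and 111 with Fucotrim II and 101, 101 and 94.8 with SGN-2FF, all of these above it. MAN2A1 fell, at -0.28 ± 0.068 (SE), -0.35 ± 0.077 and -0.19 ± 0.059 on the log2 scale with these 3 inhibitors, and MAN2A2 rose by 0.41 ± 0.061, 0.54 ± 0.12 and 0.15 ± 0.051. With P-SiaFNEtoc MAN2A2 was at 81.0, 82.7 and 82.0 CPM, all below the DMSO range, and at -0.13 ± 0.049 (adjusted p = 0.0701), which passed after the GC correction at -0.15 (adjusted p = 0.0151). With GC content corrected for, MAN2A2 kept its 3 rises and MAN2A1 lost its 3 calls, at -0.11, -0.032 and -0.13. The GC content of the main transcripts is 40.0% for MAN2A1 and 53.9% for MAN2A2. With SGN-2FF both calls were lost without DMSO replicate 3 or SGN-2FF replicate 1 or 2, and that of MAN2A2 also without DMSO replicate 1.

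Among the 6 branching genes, 2 rose and 2 fell with Fucotrim I, 3 rose and 2 fell with Fucotrim II, none rose and 2 fell with SGN-2FF, and 2 rose and 1 fell with P-SiaFNEtoc. That is 66.7%, 83.3%, 33.3% and 50% of only 6 genes, beside 43.8%, 51.4%, 20.6% and 16.3% of all genes. With GC content corrected for, 1, 4, 2 and 3 of the 6 were called, beside 39.2%, 46.9%, 23.6% and 13.9% of all genes. MGAT1, which opens the route to hybrid and complex N-glycans, was at 96.7, 83.1 and 90.2 CPM in DMSO, 101, 85.8 and 91.7 with Fucotrim I, 101 and 122 with Fucotrim II, 91.1, 87.0 and 82.4 with SGN-2FF and 103, 104 and 100.2 with P-SiaFNEtoc. It rose with Fucotrim II at 0.31 (SE 0.093, adjusted p = 0.0206) and with P-SiaFNEtoc at 0.19 (SE 0.049, adjusted p = 0.00836), and both calls were kept after the GC correction. The first was lost without DMSO replicate 2 or 3 or Fucotrim II replicate 2, and the second without DMSO replicate 2. MGAT2, which starts the second antenna, was at 54.1, 49.8 and 52.8 CPM in DMSO, 42.2, 42.8 and 39.4 with Fucotrim I and 37.4 and 37.0 with Fucotrim II. All 5 Fucotrim libraries lay below DMSO. Its falls of -0.33 (SE 0.065, adjusted p = 4.00e-04) and -0.49 (SE 0.074, adjusted p = 5.05e-04) were kept after the GC correction. An unnamed gene on the opposite strand covers 92.0% of the exons of MGAT2.

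MGAT5, whose β1,6 branch is bound by the lectin L-PHA, was at 39.5, 37.1 and 37.6 CPM in DMSO, 35.7, 33.4 and 31.0 with Fucotrim I, 32.7 and 40.3 with Fucotrim II, 33.2, 33.2 and 32.2 with SGN-2FF and 36.9, 39.0 and 33.6 with P-SiaFNEtoc. The SGN-2FF libraries lay close together below the DMSO range. The Fucotrim I libraries lay below it too, over a wider span, and the 2 Fucotrim II libraries lay on either side of it. It fell with SGN-2FF at -0.20 (SE 0.061, adjusted p = 0.0193), lost without DMSO replicate 1 or SGN-2FF replicate 2, and with Fucotrim I at -0.19 (SE 0.072, adjusted p = 0.0403), lost after the GC correction and without any 1 of the DMSO libraries or Fucotrim I replicate 2 or 3. MGAT3, whose bisecting GlcNAc blocks further branching, was low throughout, at 2.36, 1.83 and 2.38 CPM in DMSO, 2.15, 3.78 and 4.10 with Fucotrim I, 4.63 and 4.64 with Fucotrim II, 3.71, 3.15 and 2.36 with SGN-2FF and 2.98, 3.66 and 3.28 with P-SiaFNEtoc, on 30 to 82 counts per library. The Fucotrim II and P-SiaFNEtoc libraries lay wholly above DMSO, and the Fucotrim I libraries did not. It rose with Fucotrim II at 1.07 (SE 0.19, adjusted p = 0.00137), with P-SiaFNEtoc at 0.59 (SE 0.19, adjusted p = 0.0289) and with Fucotrim I at 0.61 (SE 0.23, adjusted p = 0.0412). After the GC correction the Fucotrim II call alone was kept, at 0.78. The Fucotrim I call was lost without any 1 of the DMSO libraries or Fucotrim I replicate 2 or 3, and the P-SiaFNEtoc call without DMSO replicate 2 or P-SiaFNEtoc replicate 2 or 3. MGAT4A, one of the paralogs that add the β1,4 branch, fell with P-SiaFNEtoc at -0.51 (SE 0.099, adjusted p = 5.74e-04), from 12.3, 14.4 and 13.4 to 9.72, 9.71 and 8.63 CPM, and kept that call after the GC correction at -0.41. It also fell with Fucotrim II at -0.40 (SE 0.12, adjusted p = 0.0181) and with SGN-2FF at -0.28 (SE 0.10, adjusted p = 0.0494), and both of these calls were lost after the GC correction and in part of the fits that left out a library, with an adjusted p of up to 0.0628 (without DMSO replicate 2 or 3) and 0.185 (without DMSO replicate 2 or 3 or SGN-2FF replicate 1 or 3). Its paralog MGAT4B was at 135, 133 and 136 CPM in DMSO, 164, 144 and 152 with Fucotrim I and 155 and 171 with Fucotrim II, all 5 Fucotrim libraries being above DMSO. It rose at 0.19 (SE 0.054, adjusted p = 0.00881) and 0.26 (SE 0.065, adjusted p = 0.00753), and after the GC correction these values turned to -0.068 and -0.15, the second past the threshold (adjusted p = 0.0396). The Fucotrim II rise was also lost without DMSO replicate 2.

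Ratios of paralogs within a library do not depend on scaling, and they were compared for 7 pairs with an exact permutation test, two-sided, which cannot go below p = 0.1 with 3 libraries against 3 or 3 against 2. None of the 28 tests can therefore pass a threshold of 0.05. The ratio of STT3A to STT3B counts was 0.895 in DMSO and 1.06 and 1.02 with the 2 Fucotrims in order, 0.987 for SGN-2FF and 0.976 for P-SiaFNEtoc. All 11 treated libraries lay above DMSO, but in part by a narrow margin. DMSO replicate 2 was at 0.948, Fucotrim II replicate 1 at 0.950 and P-SiaFNEtoc replicate 1 at 0.952. The permutation p with Fucotrim II was 0.2. The ratio of TUSC3 to MAGT1 was 1.45 in DMSO, 2.05 with Fucotrim I and 1.77 with Fucotrim II, both above DMSO without overlap between libraries, and overlapped with DMSO for the other inhibitors at 1.46 and 1.38. The ratio of MAN2A1 to MAN2A2 was 0.573 in DMSO and lower without overlap at 0.352 and 0.311 with the 2 Fucotrims and 0.451 with SGN-2FF, and 0.585 with P-SiaFNEtoc. The ratio of MGAT4A to MGAT4B was 0.0987 in DMSO and 0.0734, 0.0627, 0.0875 and 0.0696 with the 4 inhibitors, with SGN-2FF alone overlapping DMSO. The glucosyltransferases ALG6 and ALG8 were at 26.2, 27.7 and 26.1 and 66.3, 73.1 and 70.1 CPM in DMSO and had a ratio of 0.382 there, which was 0.348 with SGN-2FF and 0.328 with P-SiaFNEtoc, both below DMSO without overlap. The ratios of UGGT1 to UGGT2 and of MAN1A1 to MAN1A2 were 6.20 and 0.512 in DMSO and 4.96 and 0.529 with Fucotrim I, both overlapping. With Fucotrim II they were 4.15, below DMSO, and 0.582, above it, and MAN1A1 to MAN1A2 was also above DMSO with P-SiaFNEtoc at 0.539, each without overlap. The members of each pair differ in GC content, and the ratios are not corrected for it.

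The neighbouring steps of the pathway were read from lists outside the 47 genes. Of their 36 tested genes, 55.6%, 50%, 16.7% and 19.4% were called with Fucotrim I, Fucotrim II, SGN-2FF and P-SiaFNEtoc. The shares of all genes were 43.8%, 51.4%, 20.6% and 16.3%. With Fucotrim I, quality control stood at 71.4%, other assembly at 66.7%, UDP-GlcNAc at 50%, Golgi completion at 40% and GDP-mannose supply at 20%. Of the lectins and enzymes of glycoprotein quality control and glycan removal, 1 of 14 rose and 9 fell with Fucotrim I at a median of -0.24, 5 rose and 3 fell with Fucotrim II at -0.0082, 2 rose and 1 fell with SGN-2FF, and 1 rose and 1 fell with P-SiaFNEtoc. CALR, calreticulin, which binds monoglucosylated glycans, had the largest fall with Fucotrim I over all these lists. It was at 2266, 2178 and 2173 CPM in DMSO and 949.6, 1011 and 1041 with Fucotrim I, at -1.14 (SE 0.048, adjusted p = 7.15e-13), and with Fucotrim II it was at 2548 and 2840.1 CPM and had risen at 0.28 (SE 0.075, adjusted p = 0.0109), a call lost after the GC correction and without any 1 of the DMSO libraries. The fall with Fucotrim I was kept at -1.25. Of the other assembly genes, 1 of 6 rose and 3 fell with Fucotrim I, 1 rose and 3 fell with Fucotrim II, and 1 fell with SGN-2FF, which was DOLPP1, a dolichyl diphosphatase, at -0.18 (SE 0.057, adjusted p = 0.0294) and lost its call without DMSO replicate 1 or 3 or any 1 of the SGN-2FF libraries. Of the 6 genes that make and carry UDP-GlcNAc, 3 fell with Fucotrim I, 2 fell with Fucotrim II, and 1 rose and 1 fell with each of the other inhibitors. No fall of this list with either Fucotrim was kept after the GC correction. Corrected calls were 1 higher and none lower for Fucotrim I, at a median of 0.055. For Fucotrim II they were 3 higher and none lower, at a median of 0.15. SGN-2FF had 2 higher and none lower, and P-SiaFNEtoc had 2 higher and 1 lower. Of 5 tested genes of Golgi completion, 1 rose and 1 fell with each Fucotrim, none was called with SGN-2FF and 1 rose with P-SiaFNEtoc. Of the genes called over these lists, the others with the largest rise or fall with an inhibitor were as follows. MGAT5B, a brain-type relative of MGAT5, rose with Fucotrim I by 0.47 ± 0.15 (SE) and lost its call after the GC correction and without Fucotrim I replicate 3. ENGASE, which cleaves N-glycans in the cytosol, rose with SGN-2FF by 0.30 ± 0.072, a call lost without SGN-2FF replicate 2. B4GALT1, a galactosyltransferase, rose with P-SiaFNEtoc by 0.23 ± 0.045. ALG10, which adds the last glucose of the precursor, fell with Fucotrim II at -0.65 ± 0.13 and kept its call after the GC correction, and reads may be shared with its close copy ALG10B. GFPT2, the second form of the enzyme that commits sugar to UDP-GlcNAc, fell with P-SiaFNEtoc at -0.85 ± 0.28, on 11 to 27 counts per library in that comparison, and lost its call without DMSO replicate 2 or 3 or P-SiaFNEtoc replicate 2 or 3.

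None of the 5 genes that supply GDP-mannose was called lower with any inhibitor before the GC correction, and after it GMPPB, described last, was called lower with both Fucotrims. MPI, which makes mannose-6-phosphate, was at 0.038 ± 0.064 (SE) on the log2 scale with Fucotrim I and 0.066 ± 0.074 with Fucotrim II, neither past the threshold, and rose with P-SiaFNEtoc at 0.19 (SE 0.051, adjusted p = 0.0101), a call lost without P-SiaFNEtoc replicate 2. PMM2, the main phosphomannomutase, was at 0.045 ± 0.056 and 0.098 ± 0.073 with the 2 Fucotrims and rose with P-SiaFNEtoc at 0.14 (SE 0.045, adjusted p = 0.0283), a call lost after the GC correction and without any 1 of the DMSO libraries or P-SiaFNEtoc replicate 1 or 2. PMM1, its paralog, was at 52.4, 54.8 and 56.3 CPM in DMSO, 72.9, 68.0 and 71.4 with Fucotrim I and 89.3 and 98.8 with Fucotrim II, without overlap between the 3 groups. It rose at 0.38 (SE 0.059, adjusted p = 3.31e-05) and 0.78 (SE 0.071, adjusted p = 3.64e-05), the largest rise over these lists with Fucotrim II, and kept both calls after the GC correction. GMPPA, the regulatory subunit that curbs GDP-mannose synthesis, was at 28.7, 27.2 and 25.2 CPM in DMSO, 29.2, 27.4 and 28.1 with Fucotrim I and 42.3 and 50.1 with Fucotrim II. It rose with Fucotrim II at 0.77 (SE 0.094, adjusted p = 1.75e-04), kept after the GC correction, and was at 0.062 ± 0.076 with Fucotrim I. GMPPB, the catalytic subunit, was at -0.0085 ± 0.070 and -0.081 ± 0.084 with the 2 Fucotrims and was not called with any inhibitor. After the GC correction it was lower at -0.18 (adjusted p = 0.0168) with Fucotrim I and -0.35 (adjusted p = 9.03e-04) with Fucotrim II.

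Fucotrim I and Fucotrim II, both rhamnose-1-phosphate derivatives, were also compared directly, without the shared DMSO libraries. Their doses differed (30 and 60 μM), so the comparison is of these treatments and not of the compounds at 1 dose. None of the 47 genes was higher with Fucotrim I and 13 were lower, which is 27.7%, where 3.46% of all 14378 genes tested were higher and 6.04% lower. Of the 13, 7 were oligosaccharyltransferase subunits, 3 precursor genes, 3 trimming genes and none branching genes. The subunits were STT3A at -0.32 ± 0.076 (SE), STT3B at -0.37 ± 0.084, RPN1 at -0.45 ± 0.078, DDOST at -0.45 ± 0.086, OSTC at -0.30 ± 0.084, MAGT1 at -0.34 ± 0.079 and KRTCAP2 at -0.44 ± 0.083. The median of the 11 subunits was -0.32, and all 11 were below 0. The largest differences were those of PRKCSH at -0.91 (SE 0.10, adjusted p = 1.92e-04) and DPM3 at -0.89 (SE 0.11, adjusted p = 4.12e-04), followed by ALG5 at -0.55 ± 0.094 and ALG12 at -0.43 ± 0.081. MOGS and MAN1B1 made up the 13. With GC content corrected for, none was higher and 14 were lower, where 12.4% of all genes were called in either direction. They were 11 of the 13, without MOGS and MAN1B1, and TUSC3, UGGT2 and MGAT1. The direct comparison rests on 2 Fucotrim II libraries and is sensitive to single libraries. Without Fucotrim I replicate 1, 2 or 3, 7, 5 and 3 genes were called, and the 3 that stayed without replicate 3 were ALG5, DPM3 and PRKCSH. Without Fucotrim II replicate 1 or 2, 18 and 15 were called. The signs of the 13 differences were the same in all of these fits. NUS1, at -0.068 ± 0.098, did not pass the threshold, and neither did MAN2A1, at 0.058 ± 0.10, or MGAT2, at 0.16 ± 0.092, which does not show that the 2 compounds act alike on them.

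**Figure D5:**
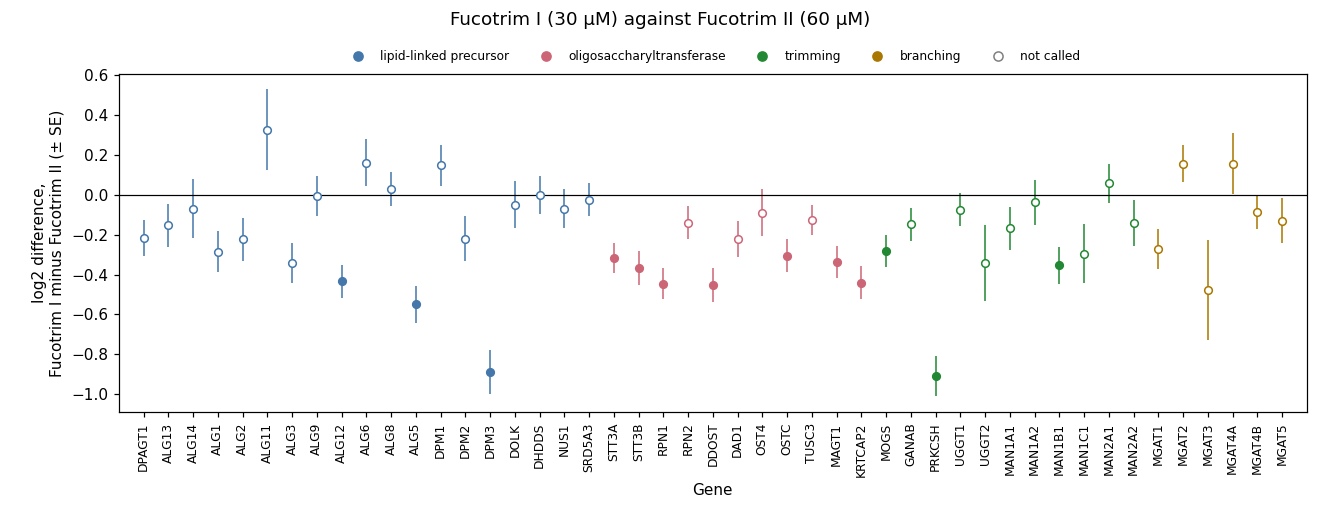
Log2 difference of Fucotrim I (30 μM) minus Fucotrim II (60 μM) with its standard error (y axis) for the 47 genes (x axis), filled where the adjusted p was under 0.05 and coloured by pathway step. All 13 filled points lie below 0, and all 11 oligosaccharyltransferase subunits do, with PRKCSH and DPM3 lowest at -0.91 and -0.89.

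Fucotrim I and SGN-2FF, 2 fucosylation inhibitors that enter by different routes, were compared directly too, again at different doses (30 and 100 μM). With Fucotrim I, 4 of the 47 genes were higher and 12 lower, which is 8.51% and 25.5%, beside 13% and 12.1% of all 14053 genes tested. Here too the oligosaccharyltransferase made up most of the lower genes, with 7 of its 11 subunits, none higher and a median of -0.17. STT3A was at -0.38 (SE 0.049, adjusted p = 5.67e-06), STT3B at -0.48 (SE 0.050, adjusted p = 2.90e-07) and MAGT1 at -0.51 (SE 0.054, adjusted p = 3.79e-07). RPN1 lost its call without SGN-2FF replicate 1 and RPN2 without any 1 of the SGN-2FF libraries or Fucotrim I replicate 2 or 3, and all 7 subunits, those 2 included, were lower after the GC correction. NUS1 was lower with Fucotrim I at -0.44 (SE 0.066, adjusted p = 3.91e-05), and DPAGT1 at -0.24 (SE 0.069, adjusted p = 0.0135), a call lost without SGN-2FF replicate 1 or 2. The 4 higher genes were DPM3 at 0.56 (SE 0.082, adjusted p = 3.07e-05), MGAT4B at 0.31 ± 0.056 (SE), MAN2A2 at 0.27 ± 0.059 and DPM2 at 0.25 ± 0.067, and the DPM2 call was lost after the GC correction and without Fucotrim I replicate 1 or SGN-2FF replicate 3.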

How the data were processed

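RNA-seq counts of CWR22Rv1 cells were used for 14 libraries in 5 groups, grouped by the labels. The authors deposited whole-number counts per gene (NCBI gene IDs) in 4 tables, 1 per inhibitor, which repeat the same DMSO libraries with identical counts. Per the labels and the study's methods, RNA was isolated with an RNeasy kit, libraries were made with a stranded mRNA kit, reads were trimmed with Cutadapt, aligned to hg38 with HISAT2 and counted with featureCounts in Galaxy, and the submitters' processing notes also name FastQC and limma. The annotation release, the strand setting and the treatment of multimapping reads are not given in the sources used here, and a gene that shares sequence with another, or overlaps it on the opposite strand, is uncertain to that extent.

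Each comparison was fitted alone with edgeR 4.0.16 (TMM, robust quasi-likelihood test) in R 4.3.3, after filterByExpr with a minimum count of 10 and a total of 15, and adjusted after Benjamini and Hochberg over all genes tested. Alternatives included limma-voom (limma 3.58.1), the study's own test, and DESeq2 1.42.0. Standard errors are the log2 fold change over the root of the F statistic. The libraries are biological replicates per the labels. Summaries and figures used Python 3.11.15, numpy 2.4.6, pandas 2.3.3 and matplotlib 3.10.9. RPKM divides by the union of the exons of GENCODE on hg38. GC content is that of the canonical transcript, and the GC and length correction used splines of 5 degrees of freedom. Scripts were tested on simulated data.

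The 47 members and all lists were chosen with earlier results of these data known. Genes with values per library are the first or catalytic enzyme of each group, the paralog pairs, and in each group and inhibitor the called gene with the largest rise and fall, and others in the text were chosen after their values were seen. The study describes 3 repeats, and 2 Fucotrim II libraries were analysed here. Some marker genes are not reported here.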

Additional observations from a re-analysis of the deposited data

How the results depend on the processing

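Whether the replicate numbers pair the samples was not settled. Deviations from the group means were correlated between DMSO and inhibitor libraries of the same number in the titles. They correlated at 0.028 to 0.28 with Fucotrim I and -0.42 to -0.32 with Fucotrim II. The ranges were -0.17 to 0.15 with SGN-2FF and -0.069 to 0.087 with P-SiaFNEtoc. By the numbers of the column names, the Fucotrim II libraries correlated with DMSO at 0.42 and 0.17, and with Fucotrim I at 0.45 and -0.051. With the replicate number as a block, 16 of the 47 genes were called with Fucotrim II (11 higher, 5 lower) and 2 in Fucotrim I against Fucotrim II, where DPM3 and PRKCSH kept their calls and the other 11 lost theirs. Under the block numbered by the column names, which differ from the titles for Fucotrim II, an alternative added after the data were seen, these counts were 27 and 18. DESeq2 called 7 genes with SGN-2FF and 3 with P-SiaFNEtoc. An adjusted p under 0.01 left 7 genes with SGN-2FF, 2 with P-SiaFNEtoc, 7 in Fucotrim I against Fucotrim II, and 16 higher and 5 lower with Fucotrim II. A single fit of all 14 libraries called 6 with SGN-2FF and 2 with P-SiaFNEtoc. Without a filter on low counts 7 were higher and 4 lower with P-SiaFNEtoc. The cause of these changes was not tested. Leaving out 1 library at a time gave 22 to 26 calls with Fucotrim I, 19 to 33 with Fucotrim II, 6 to 15 with SGN-2FF, 4 to 8 with P-SiaFNEtoc, 3 to 18 in Fucotrim I against Fucotrim II and 12 to 19 in Fucotrim I against SGN-2FF. Where 1 Fucotrim II library was left, it was assumed to vary like the others.

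The GC and length correction called 8 genes with SGN-2FF and moved the split between higher and lower to 4 and 14 with Fucotrim I, 17 and 4 with Fucotrim II, and 2 and 4 with P-SiaFNEtoc. Of all genes it called 39.2% with Fucotrim I, 46.9% with Fucotrim II, 23.6% with SGN-2FF and 13.9% with P-SiaFNEtoc, both directions together. Called log2 fold changes that turned were ALG3 at -0.067, KRTCAP2 at -0.039, PRKCSH at -0.042 and MGAT4B at -0.068 with Fucotrim I, and MOGS at -0.097, MAN1A2 at 0.094 and MGAT4B at -0.15 with Fucotrim II. Per longest transcript in place of all exons, the median level in DMSO was 17.7 RPKM in place of 9.93. Precision is limited for MGAT3 and MAN1C1 by their counts, and for Fucotrim II by its 2 libraries.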
